A study of Mus musculus with 10 samples.

Results

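A group of 3646 open chromatin sites had a peak in quiescent and in reactivated mouse neural stem and progenitor cells (NSPCs), and none in activated NSPCs. The sites were chosen by ATAC-seq peaks alone. Overlapping or abutting peaks of the 6 deposited lists were merged on chromosomes 1 to 19, and a member needed a peak in both quiescent and both reactivated lists and in neither activated list. Members were 3.46% of the 105302 merged sites (95% interval 3.35 to 3.57). Every interval of a share was computed by the Clopper-Pearson method with sites as the units, so it covers counting error and says nothing of how cultures differ.

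NSPCs came from C57BL/6 mice at postnatal day 5, and each state had 2 ATAC-seq libraries, which the study calls biological replicates. Activated NSPCs grew with 20 ng/ml FGF2 and the same amount of EGF. Quiescent NSPCs received 20 ng/ml FGF2 and 25 ng/ml BMP4 without EGF, for 4 days by the sample labels, whereas the methods of the study give a shorter time before ATAC-seq. Reactivated NSPCs spent 4 days in the quiescent medium and then 9 to 12 days with FGF2 and EGF and no BMP4. FGF2 was thus present in all groups. The cultures are early-passage mixtures of stem and progenitor cells, so a peak in a list can come from a portion of the cells. A single H3K4me3 ChIP-seq library each covered the quiescent and the activated state.

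ATAC-seq uses the Tn5 transposase, which inserts adapters where DNA is not wrapped tightly in nucleosomes, and open sites away from gene starts are often enhancers. BMP4 is a secreted signal that stops neural stem cells from dividing and favours astrocyte-like programs through SMAD proteins. Nuclear factor I (NFI) proteins bind TTGGC and are used in gliogenesis and in stem cell quiescence, whereas AP-1 proteins such as FOS and JUN bind TGANTCA and are induced by growth factors.

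The lists limit what absence and presence mean. The reactivated lists held 106586 and 107137 peaks, against 47323 to 60881 in the other 4 ATAC-seq lists, although the study had reduced the reactivated reads before calling peaks. The genome-wide background pileup recovered from the lists was 6.01 to 6.61 reads in 5 libraries and 12.1 in quiescent replicate 2, and the lowest pileup called was 16 or 17 reads, or 25 in that library. With each reactivated list limited to its 59108 strongest peaks, the length of the longer quiescent list, 1528 members were found. With all lists limited to the 46071 strongest peaks, 1029 were found. Read counts at sites without a peak were not analysed here, so a site absent from the activated lists may have held reads below the call. At 3278 of the 3646 members (89.9%), both quiescent pileups, each divided by the background of its library, lay above 2.66, the higher of the lowest called ratios in the 2 activated libraries. At 494 members (13.5%) both lay above 2 times that ratio. Members had to be called in both quiescent lists, so the first share follows in large part from the rule. Neither share measures signal in activated NSPCs.

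The mean summit with 100 bases on either side is printed here for 8 members that carry the results, from the plus strand of GRCm38 (the mm10 build of the files) as held by RefSeq. The first 5 belong to the 10 strongest members and show how different these were in motif content. The other 3 lie upstream of genes whose products act in lipid metabolism or as an EGF receptor ligand, and differ in how strong the site was after reactivation. Capitals mark the NFI half-site TTGGC, read as GCCAA on the other strand, and the AP-1 motif TGANTCA.
Upstream of Csmd1 (chr8:17700409-17700609): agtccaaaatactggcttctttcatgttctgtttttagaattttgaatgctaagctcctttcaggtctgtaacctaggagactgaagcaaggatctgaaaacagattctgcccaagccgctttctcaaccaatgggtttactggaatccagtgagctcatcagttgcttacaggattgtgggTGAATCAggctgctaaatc
Intron of Plxdc2 (chr2:16523498-16523698): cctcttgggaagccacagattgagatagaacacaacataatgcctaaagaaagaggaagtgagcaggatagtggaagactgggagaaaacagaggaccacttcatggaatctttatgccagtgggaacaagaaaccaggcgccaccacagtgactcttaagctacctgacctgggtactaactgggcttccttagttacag
Upstream of Tnc (chr4:64282624-64282824): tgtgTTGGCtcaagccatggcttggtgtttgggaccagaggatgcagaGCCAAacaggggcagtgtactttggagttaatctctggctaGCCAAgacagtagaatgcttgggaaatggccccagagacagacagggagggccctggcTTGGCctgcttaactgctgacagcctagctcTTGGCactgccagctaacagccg
Intron of Nxph1 (chr6:9078401-9078601): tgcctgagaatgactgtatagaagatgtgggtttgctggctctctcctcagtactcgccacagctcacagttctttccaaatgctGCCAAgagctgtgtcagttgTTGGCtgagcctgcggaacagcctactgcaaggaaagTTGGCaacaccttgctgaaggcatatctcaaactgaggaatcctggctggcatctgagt
Downstream of the start of 4930474N05Rik (chr14:36203935-36204135): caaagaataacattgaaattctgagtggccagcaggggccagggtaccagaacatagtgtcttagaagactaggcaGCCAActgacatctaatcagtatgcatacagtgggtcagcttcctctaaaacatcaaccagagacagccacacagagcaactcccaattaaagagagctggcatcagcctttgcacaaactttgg
Upstream of Plin2 (chr4:86685756-86685956): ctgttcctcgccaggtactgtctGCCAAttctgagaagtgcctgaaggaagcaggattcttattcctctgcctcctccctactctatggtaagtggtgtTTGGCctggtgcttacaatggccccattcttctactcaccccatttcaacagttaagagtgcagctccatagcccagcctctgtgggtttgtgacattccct
Upstream of Tgfa (chr6:86186539-86186739): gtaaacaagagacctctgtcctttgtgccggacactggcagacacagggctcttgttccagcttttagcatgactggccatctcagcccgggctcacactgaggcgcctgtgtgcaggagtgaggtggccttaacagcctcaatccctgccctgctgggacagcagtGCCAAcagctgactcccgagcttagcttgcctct
Upstream of Cpt2 (chr4:107944262-107944462): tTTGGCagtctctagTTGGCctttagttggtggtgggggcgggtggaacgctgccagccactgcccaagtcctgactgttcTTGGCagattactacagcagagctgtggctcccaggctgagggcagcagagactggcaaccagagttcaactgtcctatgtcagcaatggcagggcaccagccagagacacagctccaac

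The sequence upstream of Tnc held 5 NFI half-sites, that in Nxph1 held 3 and that upstream of Cpt2 held 3. The sequence in Plxdc2 held neither motif, and the one upstream of Csmd1 held a single AP-1 match and no NFI half-site.

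Of 6666 sites with a peak in both quiescent lists and in neither activated list, 54.7% were members (95% interval 53.5 to 55.9). A further 372 (5.58%) had a peak in reactivated replicate 1 alone and 880 (13.2%) in replicate 2 alone. The remaining 1768 (26.5%) had a peak in neither and are called quiescent only. The share depended on the length of the reactivated lists, and was 22.9% with the 59108 strongest reactivated peaks and 18.5% with all lists at equal length. Among the 22742 sites with a peak in both reactivated lists and in no activated list, members made up 16.03%, and 15307 had no quiescent peak either.

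Members were of moderate strength. Fold enrichment, the ratio of the pileup at the summit to the local background, had a median over members of 4.08 in quiescent replicate 1, 3.52 in quiescent replicate 2, 4.80 in reactivated replicate 1 and 5.19 in reactivated replicate 2. These medians stood at percentiles 49.4, 50.7, 49.4 and 54.4 of all peaks in the list of each library. Members were ranked by their strongest peak, whereas a list can hold several peaks of a site. Counted by site in the same way, the medians over all sites with a peak were 4.45, 3.74, 5.20 and 5.19. Fold enrichment over members reached from 1.67 in quiescent replicate 2 and in reactivated replicate 1 to 22.4 in reactivated replicate 2. The median width of a member was 371 bp, against 282 bp over all sites and 659 bp over the 22589 sites with a peak in all 6 lists. At 2921 members (80.1%) the 4 summits lay within 100 bp of each other. The distance between summits had a median of 19 bp between quiescent replicates, 17 bp between reactivated replicates and 20 to 22 bp between libraries of the 2 states.

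**Figure D1:**
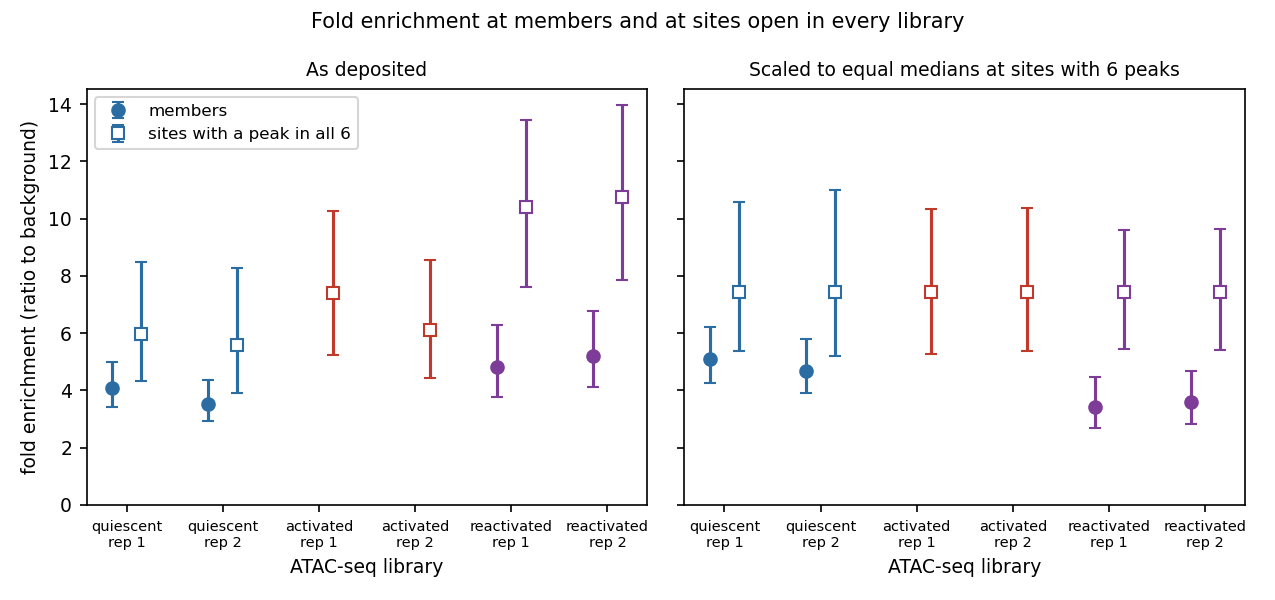
Median fold enrichment with the 25th and 75th percentiles as bars, per ATAC-seq library, at members (filled circles) and at sites with a peak in all 6 libraries (open squares), as deposited on the left and scaled on the right. As deposited, members had medians of 4.80 and 5.19 in reactivated against 4.08 and 3.52 in quiescent libraries, and once scaled 3.43 and 3.58 against 5.08 and 4.68, so the direction depends on the scaling.

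Whether members were weaker or stronger after reactivation depended on the scale. Reactivated libraries had higher median fold enrichment, with 10.4 and 10.8 at sites with a peak in all 6 lists, against 5.96 and 5.58 in quiescent libraries. With the medians at those sites set equal between libraries, the reactivated minus quiescent difference over members had a median of -0.49 on the log2 scale (middle 50% from -0.81 to -0.15), whereas it was 0.38 with the values as deposited. Over all 29917 sites with a peak in both quiescent and both reactivated lists, the median was -0.20 scaled and 0.67 as deposited. The members' median minus that of those sites was thus -0.29 on both scales. This equality holds by construction, as the scaling shifts the difference by the same amount at every site. The gap was -0.21 after quantile normalization and -0.66 with pileup over genome-wide background. On the scaled values both quiescent libraries lay above both reactivated libraries at 2345 members (64.3%), where 47.8% of the 29917 sites did so. The reverse order held at 253 members (6.94%), where 21.8% of the 29917 sites did so. As deposited, quiescent libraries lay above at 321 members (8.80%) and reactivated libraries at 2015 (55.3%), where 3.29% and 80.3% of the 29917 sites did so. The share with quiescent libraries above was 46.8% of members and 35.0% of the 29917 sites after quantile normalization, and 82.7% against 46.7% of 28417 sites with scaled pileup. It also depended on the lists. With scaled fold enrichment it was 51.2% of the members found at a −log10 q of 10 or more, 40.9% with shorter reactivated lists and 29.7% with all lists at equal length. The rule used these peaks, and a site without an activated peak differs in strength from one with it, so the figures describe the members and test nothing. Between replicates, the scaled values had a median absolute difference over members of 0.23 on the log2 scale in quiescent and 0.27 in reactivated libraries. Between the means of the 2 states, also scaled, it was 0.52.

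The strongest members, by mean scaled log2 fold enrichment over the 4 libraries, lay far from gene starts. All 10 were in introns or between genes and none overlapped an H3K4me3 peak of either state. Most members were alike in this, with 47.0% in introns, 34.8% between genes and 92.4% under no H3K4me3 peak. The first lay 164932 bp upstream of Csmd1, which codes for a complement-regulating membrane protein, at chr8:17700234-17700803. Its fold enrichment was 8.78 and 9.78 in quiescent replicates 1 and 2 and 12.0 and 16.5 in reactivated replicates 1 and 2, so the groups did not overlap as deposited, although they did once scaled.

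At 3 of the 10, fold enrichment its highest values in quiescent NSPCs on either scale. At chr14:36203831-36204239, whose nearest protein-coding start was that of 4930474N05Rik, fold enrichment was 15.97 and 14.2 in quiescent and 4.94 and 9.58 in reactivated libraries. In an intron of Plxdc2, a gene for a transmembrane plexin-domain protein, it was 13.4 and 14.0 in quiescent and 9.21 and 9.58 in reactivated libraries. In an intron of Nckap5 at chr1:126254109-126254918 it was 13.8 and 13.5 in quiescent and 7.47 and 11.3 in reactivated libraries. Quiescent libraries lay above reactivated libraries at all 3 sites without overlap. The site nearest to 4930474N05Rik was no longer a member with shortened reactivated lists or with all lists at equal length, the only one of the 10 lost under these settings.

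The sites nearest to Tnc and Hapln1, genes for extracellular matrix proteins of the brain, were also among the 10. The Tnc site, 235664 bp upstream of the gene at chr4:64282422-64282936, had 10.1 and 10.2 in quiescent and 9.74 and 14.5 in reactivated libraries, which overlapped as deposited. Once scaled, quiescent libraries were higher at the Tnc site without overlap, with a difference of -0.65 on the log2 scale. The Hapln1 site, 144771 bp upstream at chr13:89394728-89395322, had 7.89 and 8.02 in quiescent and 12.5 and 13.4 in reactivated libraries. An intron of Erbb4, the gene of a neuregulin receptor, held a site with 8.94 and 8.33 in quiescent and 12.4 and 11.7 in reactivated libraries. Introns of Nxph1 and Sgms1 and a site 131094 bp upstream of Tmem229a completed the 10. Of these, Nxph1 had 9.33 and 7.64 in quiescent and 12.5 and 13.0 in reactivated libraries. At the sites of Nxph1, Sgms1, Erbb4 and Hapln1 reactivated libraries were higher as deposited, but the scaled difference was -0.28, -0.31, -0.39 and -0.17 on the log2 scale.

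At the other end, the 3 members with the lowest smallest fold enrichment lay on chromosomes 5, 8 and 4, nearest to the starts of Speer4e, Gm21119 and Zfp992. The first had 2.27 and 1.94 in quiescent and 1.67 and 2.30 in reactivated libraries, on pileups of 75, 138, 59 and 85 reads, so its local background was high. In their windows of the same length, 96.5%, 100% and 48.8% of bases were repeats in the RefSeq sequence, where reads can be shared with other copies. Just outside the rule were 2926 sites that differed from members only by a peak in activated replicate 1 and 756 by a peak in activated replicate 2. That single activated peak had a median fold enrichment of 3.96 in replicate 1 and 3.52 in replicate 2. A further 2171 and 1618 sites lacked only the peak of quiescent replicate 1 or 2.

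Most members lay away from promoters. A promoter was taken as 1 kb on either side of a transcription start in GENCODE M21. The share of members there was 12.3% (95% interval 11.2 to 13.4), between 7.30% of quiescent only sites and 17.01% of sites open in activated and reactivated but not quiescent NSPCs. It was 25.5% over all sites and 54.5% over sites with a peak in all 6 lists. Introns held 47.0% of members, exons 5.84% and intergenic sequence 34.8%. The median distance to the nearest start was 11338.5 bp, and 53.0% of members lay more than 10 kb away, against 44.2% of all sites. The nearest activated peak was a median of 12847 bp away, and 172 members (4.72%) had one within 500 bp, against 3.56% of quiescent only sites and 13.2% of the 15307 sites open in reactivated NSPCs alone.

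**Figure D2:**
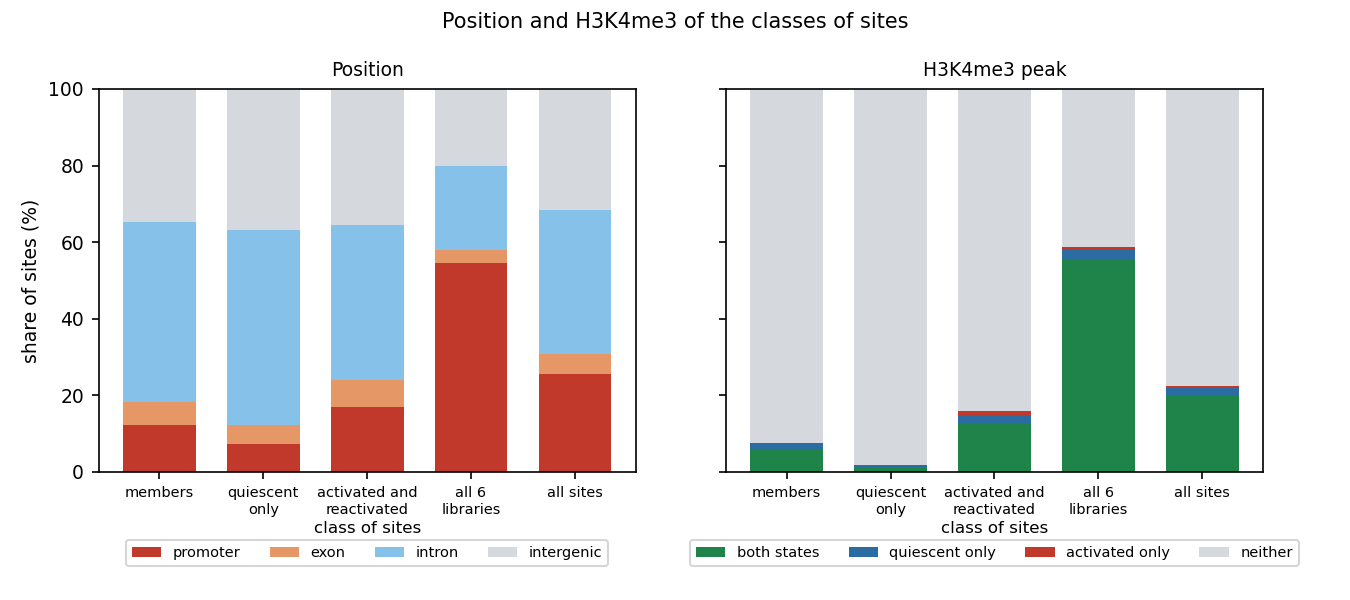
Shares of sites (%) by position, on the left, and by overlap with H3K4me3 peaks of quiescent and activated NSPCs, on the right, in 5 classes of sites. Members had 12.3% at promoters and 5.79% under H3K4me3 peaks of both states, both below the shares over all sites of 25.5% and 20.2%.

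H3K4me3, a histone mark of active promoters, was not used to choose the members. It covered at least 1 bp of 211 members (5.79%, 95% interval 5.05 to 6.59) in both states, of 59 (1.62%) in quiescent NSPCs alone and of 8 (0.219%) in activated NSPCs alone. The share in both states was 10.3% of members without activated replicate 1, 9.69% at a −log10 q of 10 or more and 10.9% with all lists at equal length. With all peaks it was 0.962% among quiescent only sites, 12.6% among sites of activated and reactivated NSPCs, and 20.2% over all sites. Marked sites were members more often than unmarked sites. Of 254 quiescent sites without an activated ATAC-seq peak but with H3K4me3 in both states, 211 (83.1%, 95% interval 77.9 to 87.5) were members, against 53.3% of 6323 without the mark (52.0 to 54.5). With the sites divided into 5 groups of quiescent strength, sites marked in both states were set against all others, including those marked in a single state. The share was higher with the mark in each group. It was 75.8% against 33.9% in the weakest group and 95.7% against 68.4% in the strongest, where 23 sites were marked. Fold enrichment of H3K4me3 at the 211 members had a median of 20.1 in quiescent and 17.1 in activated NSPCs. It was higher in quiescent NSPCs at 146 of them (69.2%), close to the 66.5% over all 21259 sites marked in both states. With 1 library per state, no difference between the states could be tested.

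The share of quiescent sites with a peak in both reactivated libraries was also higher at stronger quiescent sites, a measure from the same lists that chose the members and so a description. With the 6666 sites in 5 groups of about equal size by scaled quiescent fold enrichment, 36.0% were members in the weakest group (33.4 to 38.6) and 68.8% in the strongest (66.3 to 71.3). By GC content of the bases within 100 bp of the summit, it was 44.5% in the lowest of 5 groups and 67.1% in the highest. Chromosomes differed little, from 50.3% on chromosome 4 to 59.0% on chromosome 11, and the intervals of these 2 chromosomes overlapped.

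**Figure D3:**
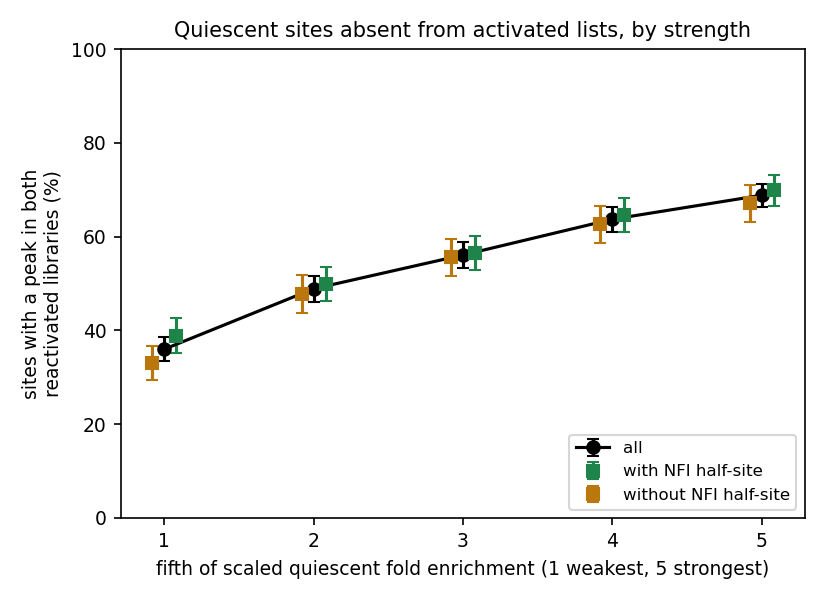
Share (%) of quiescent sites without an activated peak that had a peak in both reactivated libraries, in 5 groups of scaled quiescent fold enrichment, with 95% binomial intervals, over all sites and split by the NFI half-site. The share over all sites went from 36.0% to 68.8%, and within each group the intervals of sites with and without an NFI half-site overlapped.

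Motifs were searched on both strands within 100 bp of the mean summit, 28 in all. The NFI half-site TTGGC, the shortest word among them and the most frequent over all sites too, was found in 55.6% of members (95% interval 54.0 to 57.2), 51.9% of quiescent only sites, 46.3% of sites of activated and reactivated NSPCs and 44.6% of all sites. A member held a mean of 0.850 half-sites against 0.616 over all sites, and 21.6% of members held 2 or more against 13.4%. Away from promoters the shares were 56.6% of members and 46.2% of all sites. The full palindrome, in which TTGGC and GCCAA stand 5 bases apart and which holds the half-site, was rare, in 0.0549% of members and 0.108% of all sites. Matches were densest near the summit, with 10.9 per 100 members in the 20 bases before it and 5.79 in the outermost 20 bases on that side, against 7.20 and 4.72 over all sites. Median GC content was 50.2% in members, 48.3% in quiescent only sites and 52.2% over all sites, and its part in the motif shares was not tested.

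Members also differed in motifs from sites open in activated and reactivated and not in quiescent NSPCs. CAGATG, an E-box of OLIG factors, was in 14.95% of members (13.8 to 16.1), 15.6% of quiescent only sites and 17.7% of all sites, but in 29.1% of sites of activated and reactivated NSPCs (27.7 to 30.5). The AP-1 motif was in 6.94% of members, 6.00% of quiescent only sites and 7.68% of all sites, and in 13.0% of those sites. The SOX motif ACAAAG was in 22.6% of members, 18.6% of quiescent only sites, 19.7% of all sites and 27.1% of those sites. A second SOX motif, AACAAT, was slightly less frequent in members than over all sites, at 7.35% against 7.85%. It was in 6.28% of quiescent only sites and 11.2% of sites of activated and reactivated NSPCs.

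Relative to all sites, the homeobox motif TAATTA was 1.76 times as frequent in members, at 6.53% against 3.72%, where the NFI half-site was 1.25 times as frequent. It was in 8.48% of quiescent only sites and 3.46% of sites of activated and reactivated NSPCs. MEF2 and glucocorticoid receptor motifs were 1.39 and 1.295 times as frequent in members as over all sites.

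Other motifs set members apart from quiescent only sites. CTCF, the insulator protein that anchors chromatin loops, had a match in 3.54% of members (2.96 to 4.19) and 0.396% of quiescent only sites, against 4.15% of all sites. With 1 library left out, the share of members was between 3.08% and 5.68%, at 5.68% without quiescent replicate 2 and 5.64% without activated replicate 1. Of the 158 quiescent sites without an activated peak that held a CTCF match, 81.6% were members (74.7 to 87.3), against 54.0% of the others (52.8 to 55.3). For GGGCGG, bound by SP and KLF proteins, 74.1% of 282 sites were members against 53.8%. The order was the opposite for TGACAG, the motif of MEIS homeodomain proteins, which was in 18.9% of members, 27.1% of quiescent only sites and 16.3% of all sites, and 48.2% of sites with it were members against 56.5% without. For ACANNNTGT, the spacing of the glucocorticoid receptor motif, it was 46.3% against 55.6%, and for TAAAAATA, a MEF2 motif, 42.1% against 55.0%. Within each of the 5 groups of quiescent strength, the share was higher with CTCF and GGGCGG and lower with TGACAG, ACANNNTGT and TAAAAATA, although the weakest and the strongest group held only 11 and 17 sites with CTCF. For the NFI half-site it was 56.4% (54.7 to 58.0) against 52.8% (51.0 to 54.5). The share was higher with the half-site in each of the 5 groups, and within each group the intervals overlapped. For AP-1 the shares were 53.4% and 54.8% over all groups of strength, but 44.8% (34.6 to 55.3) against 35.3% (32.6 to 38.0) in the weakest group and 55.4% (44.1 to 66.3) against 69.7% (67.1 to 72.3) in the strongest, where the intervals did not overlap. By GC content, the share of sites that were members went from 44.5% in the lowest to 67.1% in the highest of 5 groups. The part of GC content in these motif differences was not tested. A match of letters does not show that a factor was bound.

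**Figure D4:**
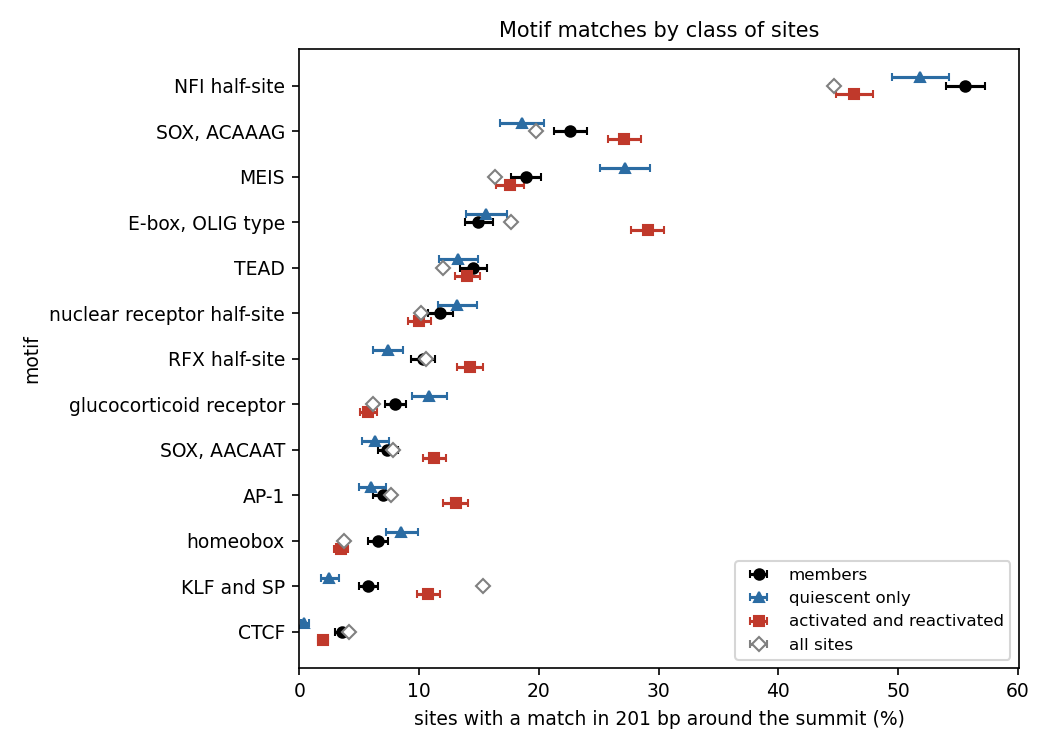
Share (%) of sites with a match within 100 bp of the mean summit for 13 of the 28 motifs, with 95% binomial intervals, in members, quiescent only sites, sites of activated and reactivated NSPCs, and all sites. Members stand at 55.6% for the NFI half-site and at 14.95% for the OLIG-type E-box, where sites of activated and reactivated NSPCs stand at 46.3% and 29.1%.

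Genes were tied to members by position alone. A window from 25 kb upstream to 10 kb downstream of the start of a protein-coding gene held 921 members (25.3%), at 1200 genes. Those genes are 6.79% of the 17686 genes with any site in their window, the background for the gene lists, which were chosen with earlier results of these data known. Genes with more sites have more chances of a member: the mean was 3.34 sites over these genes and between 3.61 and 5.79 in the lists. Gene expression was not measured in these files.

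BMP pathway genes had members at 6 of 29 genes (20.7%), with a mean of 4.34 sites per gene. Bmp6, a BMP ligand, had a member across its start at chr13:38344911-38345213, under H3K4me3 peaks of both states. Its fold enrichment was 3.68 and 4.43 in quiescent and 8.95 and 5.77 in reactivated libraries, which did not overlap as deposited but did once scaled. The window of Bmpr1a, a BMP receptor, held a member in an exon of 9230112D13Rik with 3.94 and 2.22 in quiescent and 6.40 and 10.5 in reactivated libraries. An intron of Smad4, the SMAD shared by BMP and TGF-beta signals, held one with 4.60 and 2.52 in quiescent and 4.40 and 5.59 in reactivated libraries. Nog codes for noggin, which binds and blocks BMPs. Its member, 16249 bp upstream at chr11:89318311-89318852, had 5.13 and 3.90 in quiescent and 2.94 and 4.52 in reactivated libraries. The groups overlapped at Smad4 on both scales and at Nog as deposited, whereas once scaled quiescent libraries were higher at Nog, with a difference of -1.17 on the log2 scale. Crim1, a BMP-binding membrane protein, and Smad9, a SMAD activated by BMP receptors, were the other two. The member at the start of Smad9, under H3K4me3 peaks of both states, had an activated peak 103 bp away.

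Astrocyte and radial glia genes had members at 5 of 24 genes (20.8%), with a mean of 5.29 sites. The water channel gene Aqp4 had one 10511 bp upstream, with 6.93 and 6.53 in quiescent and 8.005 and 7.31 in reactivated libraries. Apoe, the main lipid carrier of the brain, had one at its start under an H3K4me3 peak of quiescent NSPCs alone, with 3.64 and 2.84 in quiescent and 7.15 and 6.91 in reactivated libraries. The glutamate transporter gene Slc1a3 had one 280 bp from its start with 3.80 and 4.32 in quiescent and 3.24 and 3.74 in reactivated libraries. Slc1a2, the other main astrocyte glutamate transporter, had one 7890 bp upstream. At Aqp4 and Apoe reactivated libraries were higher as deposited, and at Slc1a3 quiescent libraries were, without overlap. Once scaled, quiescent libraries were higher at Aqp4 and reactivated libraries still at Apoe. At Slc1a3 pileups were 36, 62, 61 and 60 reads, and relative to the genome-wide background, without scaling, reactivated libraries were higher. That unscaled measure put reactivated libraries above at 88.1% of 28417 sites with a peak in both states.

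Nfib codes for an NFI protein and was in both the astrocyte list and the list of quiescence regulators, where it was the only one of 20 genes with a member (5.00%). Its strongest member lay 24756 bp upstream at chr4:82730251-82730762, with 6.57 and 6.42 in quiescent and 7.87 and 7.98 in reactivated libraries, and quiescent libraries were higher once scaled. A second lay at its start at chr4:82704782-82705561, under an H3K4me3 peak of quiescent NSPCs alone, with 6.44 and 5.04 in quiescent and 4.24 and 7.14 in reactivated libraries. Looked at after the motif shares were seen, the gene with 100 kb on either side held 54 sites, of which 5 were members (9.26%), where members were 3.46% of all sites. Nfia had 4 of 56 (7.14%), and Nfic and Nfix had none of 36 and 47.

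Notch genes had members at 3 of 25 genes (12.0%). Hes5, a Notch target that keeps stem cells undifferentiated, had one 14371 bp upstream with 3.38 and 4.05 in quiescent and 5.34 and 4.28 in reactivated libraries. Notch2, a Notch receptor, had one 20113 bp upstream with 3.68 and 3.59 in quiescent and 4.67 and 5.59 in reactivated libraries. Maml2, a coactivator of Notch, had one 2130 bp into the gene, under H3K4me3 peaks of both states, with 3.84 and 2.87 in quiescent and 4.11 and 4.16 in reactivated libraries. All 3 were higher in reactivated libraries as deposited, without overlap, and at all 3 the order was the opposite once scaled, again without overlap.

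Genes of EGF, FGF and ERK feedback had members at 3 of 26 genes (11.5%). Tgfa, which codes for an EGF receptor ligand, had one 8582 bp upstream at chr6:86186480-86186802, with 6.05 and 5.35 in quiescent and 8.41 and 12.8 in reactivated libraries. Etv4, an ETS factor downstream of FGF signals, had one 5697 bp upstream with 5.35 and 4.28 in quiescent and 7.70 and 7.21 in reactivated libraries. At Etv4 the order was the opposite once scaled, without overlap, and at Tgfa the states then overlapped. Dusp6, an ERK phosphatase, had one 521 bp upstream, but an activated peak lay 51 bp from it, so the promoter around this member was open in activated NSPCs too.

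Cell cycle genes had members at 3 of 25 genes (12.0%), namely E2f2, Mcm2 and Ccnd1, although the member in the window of Mcm2 was nearer to the start of Tpra1. The member of Ccnd1, which codes for cyclin D1, lay 2235 bp into the gene with 4.42 and 3.99 in quiescent and 3.38 and 3.09 in reactivated libraries, so it was higher in quiescent libraries as deposited and once scaled. Pileups at that site were 52, 64, 89 and 59 reads, so that relative to the genome-wide background, without scaling, the order was the opposite. On that unscaled measure reactivated libraries lay above at 88.1% of 28417 sites with a peak in both states. That of E2f2 had 4.47 and 3.44 in quiescent and 7.06 and 4.12 in reactivated libraries, which overlapped. Of 12 AP-1 genes, Jund alone had a member (8.33%), 11273 bp upstream.

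Lipid metabolism genes had members at 2 of 29 genes (6.90%). Plin2 codes for the coat protein of lipid droplets. Its member, 15794 bp upstream at chr4:86685547-86686161, had 7.92 and 7.26 in quiescent and 3.07 and 5.19 in reactivated libraries, a scaled difference of -1.80 on the log2 scale. Cpt2, a mitochondrial enzyme of fatty acid oxidation, had one 20728 bp upstream at chr4:107944179-107944498, with 3.55 and 3.82 in quiescent and 7.34 and 6.38 in reactivated libraries. The states were ordered oppositely at these 2 sites as deposited, and at Cpt2 they overlapped once scaled. Matrix and adhesion genes had members at 2 of 52 genes (3.85%), Gpc6 and Tnr.

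Ribosomal protein genes had members at 5 of 27 genes (18.5%), but 3 of these members were nearer to another protein-coding start. The member in the window of Rplp0 lay at the start of Gcn1l1, that of Rpl7 in an intron of Rdh10 and that of Rpl18 nearest to Dbp. Rpl5 and Rpl13 were the other two. No member lay in the window of any of 14 oligodendrocyte lineage genes, 20 neuronal lineage genes or 18 genes of the TEAD and YAP pathway, whose means were 5.79, 3.95 and 3.61 sites per gene. Of the 13 lists, 3 had no gene with a member (0%), and quiescence regulators, matrix genes and lipid genes had shares of 5.00%, 3.85% and 6.90%.

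**Figure D5:**
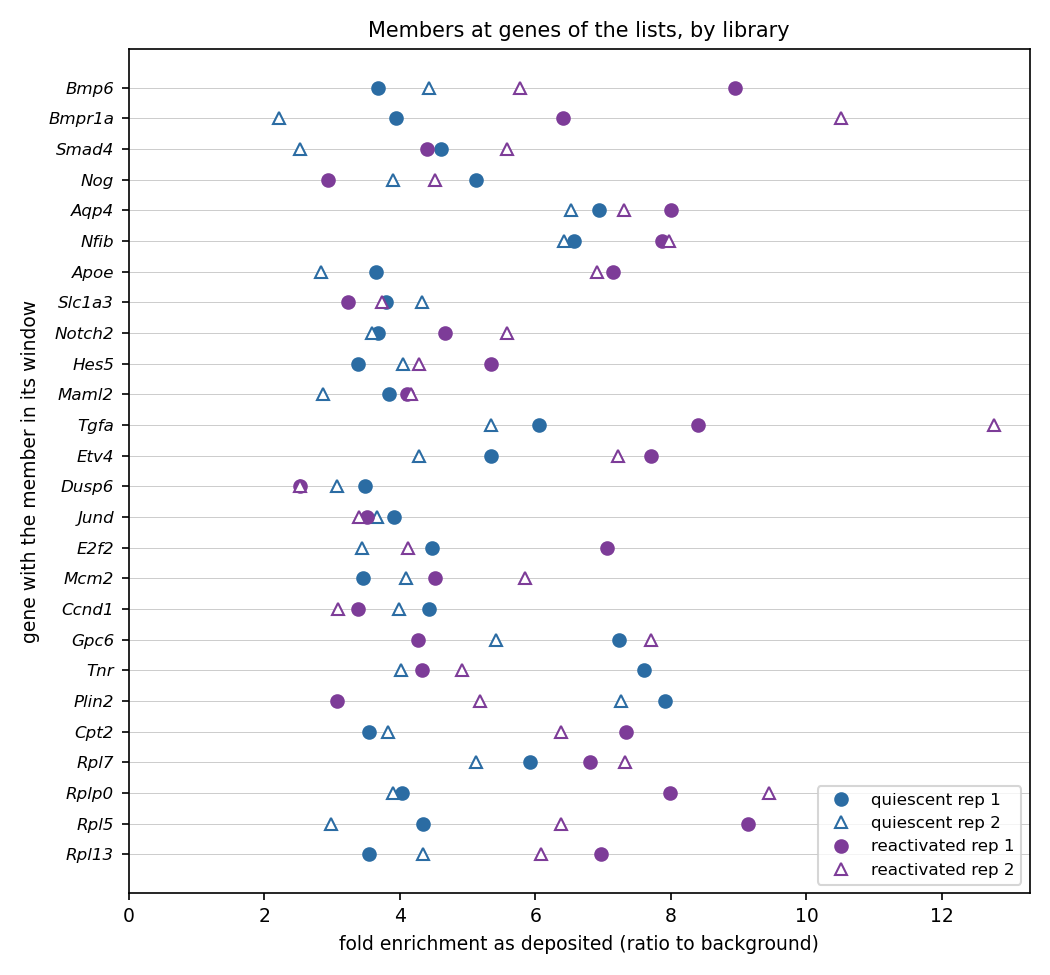
Fold enrichment as deposited (ratio to background) in each of 2 quiescent and 2 reactivated libraries at 26 members in the windows of list genes, up to 4 per list. Plin2 is highest in quiescent libraries, at 7.92 and 7.26, and Tgfa is among the highest in reactivated libraries, at 8.41 and 12.8. The scaling of the libraries lowers the reactivated values against the quiescent values at every site.

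No gene had more than 2 members in its window, and 65 genes had 2. Ordered among these by the fewest sites, a tie-break chosen after the values were seen, Gjb2, the gene of connexin 26, came first with members as its only 2 sites. The one at its start had 3.01 and 2.29 in quiescent and 4.58 and 5.76 in reactivated libraries. The other, 238 bp from the start of Gm4491, had 4.34 and 3.82 in quiescent and 11.2 and 12.1 in reactivated libraries. Cd83, Dnah6, Mc3r, Muc15, Neb, Phax, Ppp1r42, Rab10 and Slc4a10 followed, each with 2 of 3 sites. Slc4a10 codes for a sodium bicarbonate transporter. Its members lay 78 and 1475 bp from the start, with 4.86 and 4.05 in quiescent and 5.60 and 7.45 in reactivated libraries at the first, where quiescent libraries were higher once scaled.

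With members joined where 12.5 kb or less lay between neighbours, 286 (7.84%) stood in 141 clusters, and the 4 largest had 3 members each. The first lay in introns of Gli2, a transcription factor of Hedgehog signalling, over 16356 bp at chr1:118895055-118911410. Its 3 members had fold enrichment from 2.53 to 5.46 in quiescent and from 3.39 to 7.02 in reactivated libraries. The second lay in introns of Nfasc, a cell adhesion gene, at chr1:132629652-132648316. The third lay between genes at chr10:56832004-56851220, where the nearest protein-coding start was that of Gja1, the gene of the astrocyte connexin 43, at least 454831 bp away. The fourth lay in introns of Paqr8, a progestin receptor gene, and its member at chr1:20919609-20920104 had 9.44 and 9.10 in quiescent and 4.05 and 5.72 in reactivated libraries. A pair upstream of Dnah6 followed, within 589 bp.

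The extremes of the change, chosen after the values were seen, show its range. In an intron of Tiam2, a gene for a RAC activator, a member at chr17:3379734-3380405 had 3.16 and 3.29 in quiescent and 20.3 and 22.4 in reactivated libraries, on pileups of 23, 42, 166 and 193 reads. In an intron of Pid1 at chr1:84222039-84222542, another had 12.2 and 11.2 in quiescent and 3.60 and 3.19 in reactivated libraries, on pileups of 99, 164, 26 and 23 reads. On the scaled log2 values these differences were 1.85 and -2.66, and both kept their direction as deposited.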

How the data were processed

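The authors trimmed reads with Trim Galore 0.4.0, aligned them to mm10 with Bowtie2 2.2.5, used Picard 1.88 and SAMtools 1.3.1, per the labels and methods, and called ATAC-seq peaks with MACS, separately for every library, at an FDR of 0.05. The deposited fold enrichment is a ratio of pileup to background, not normalized between libraries. The authors also deposited a −log10 p-value and a −log10 q-value for each peak, which depend on the depth of the library, and the other deposited value used is the summit offset. H3K4me3 peaks were called by the authors against input.

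Here, peaks were merged into sites with Python 3.11.15, numpy 2.4.6, pandas 2.3.3 and scipy 1.17.1. Each site took the strongest peak of each library. Log2 fold enrichment was scaled so that its median over sites with a peak in all 6 libraries was equal. Pileups were recovered from fold enrichment and p where −log10 p was at most 250 (98.7% to 99.8% of peaks), and a whole number gave p to within 0.02%. Motifs were exact matches, and repeats are the lower-case bases of RefSeq. No test was run, since the peaks chose the members and other measures have no replicates. Classes, motif search and recovery were tested on simulated data. Members and gene lists were chosen with earlier results of these data known. Sites were named by rule: the 10 strongest members, up to 4 genes per list with the strongest member, the 10 genes with most members, the 5 largest clusters and the 3 weakest members. Crim1, Smad9, Slc1a2 and Rpl18, beyond the first 4 genes of their lists, were named as well. List genes off chromosomes 1 to 19 were left out. Alternatives were other merging, a −log10 q of 10 or more, equal list lengths, X and Y, each library left out, and other windows, overlaps and scalings. Another 4 were added after seeing the data: shorter reactivated lists, pileup over background with and without scaling, and a window around the strongest quiescent summit.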

Additional observations from a re-analysis of the deposited data

How the results depend on the processing

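No paired analysis was possible because no result comes from a test. Described by pairs of libraries, the reactivated minus quiescent median over members was -0.57 for replicates 1 and -0.39 for replicates 2. The number of members was 3646, and 3474 to 3733 with other merging, with X and Y or with no activated peak within 500 bp. It was 1981 at a −log10 q of 10 or more, 1029 with equal lists and 1528 with shorter reactivated lists, and 4029 to 6581 with 1 library left out, with 5840 without quiescent replicate 1 and 6581 without activated replicate 1. The members' share of quiescent sites without an activated peak was 62.6%, 18.5% and 22.9% under the same 3 settings, and 39.4% to 68.0% with a library left out. The reactivated minus quiescent log2 median of -0.49 was 0.38 as deposited, 0.54 with pileup over background and -0.86 with that pileup scaled, -0.25 after quantile normalization, -0.28, -0.0034 and -0.14 under the 3 settings, and -0.54 to -0.38 with a library left out.

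H3K4me3 in both states covered 4.77% when 50% of the site had to be covered, 5.00% when peaks within 150 bp were merged, 9.69%, 10.9% and 8.18% under the 3 settings, and 5.13% to 10.3% with a library left out. The promoter share was 17.7% within 2 kb, 8.42% with protein-coding transcripts alone, 15.04%, 18.2% and 14.1% under the 3 settings, and 11.6% to 15.9% with a library left out. The NFI half-site share was 70.6% over whole sites, 58.4% with equal lists, and 52.0% to 55.2% with a library left out. Genes with a member numbered 2197 by nearest start, 767, 381 and 542 under the 3 settings, and 1330 to 2458 with a library left out. Among the 10 strongest members, 7 changed sign as deposited and with pileup over background. Those in Nxph1, Sgms1, Erbb4 and near Hapln1 went to 0.60, 0.56, 0.48 and 0.71 as deposited and to 0.65, 0.56, 0.53 and 0.86 with pileup. Those near Csmd1, Tmem229a and Tnc went to 0.60, 0.011 and 0.22 as deposited and to 0.73, 0.072 and 0.38 with pileup. Of the 26 list members named, 8 remained at a −log10 q of 10 or more and 13 with equal lists. The causes were not tested.

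With 2 libraries per state and 1 of H3K4me3, spread between cultures is poorly known. A peak list holds no value where nothing was called, so absence in activated NSPCs cannot be told apart from weak signal. Peaks do not tell whether all cells opened a site a little or a portion of the cells opened it fully.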
